A study of Mus musculus with 6 samples.

Results

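The immunity-related GTPases (IRG proteins) are a family of interferon-induced enzymes of the mouse, and 7 of their genes are described here: Irgm1, Irgm2, Igtp, Iigp1, Ifi47, Tgtp1 and Tgtp2. They were chosen by gene symbol, as 7 of the 54532 gene rows in each deposited table, and each symbol had a single row. RNA had been sequenced from cultured bone-marrow-derived macrophages of C57BL/6 mice. All cells had been given lipopolysaccharide (LPS), a bacterial cell-wall component sensed through TLR4; the dose was 100 ng/ml and the exposure 12 hours. One group had received a small interfering RNA (siRNA) against the chemokine receptor CXCR4 (siCXCR4), and the control group a negative-control siRNA (siNC). The groups follow these sample labels, while the value columns inside the tables are headed with names that begin wt in the siNC tables and mko in the siCXCR4 tables. What those headings stand for is not stated, so whether the groups differ by siRNA or in another way rests on the labels alone. No group without LPS and none without siRNA was analysed here, so the values show levels under LPS and not their induction. The labels give neither the age and sex of the mice nor whether the replicates are separate cultures, so p-values refer to the spread among these libraries alone, and that spread may be technical.

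IRG proteins act in cell-autonomous defence against microbes that live inside vacuoles, such as Toxoplasma. The family has a regulatory branch, named GMS after its altered nucleotide-binding loop, which holds Irgm1, Irgm2 and Igtp (also called Irgm3). These proteins sit on the cell's own membranes and keep the effector branch inactive there. The effector branch, named GKS, holds Iigp1 (Irga6), Ifi47 (Irgd) and the pair Tgtp1 and Tgtp2 (Irgb6), which load onto the vacuole membrane and disrupt it. In macrophages the genes are switched on by interferon-gamma, whose signal acts at the gamma-activated site, and by type I interferon, whose signal acts at the interferon-stimulated response element.

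RefSeq promoter sequences (build GRCm38.p6) were matched by symbol for 6 members, Irgm1, Irgm2, Igtp, Ifi47, Tgtp1 and Tgtp2. Iigp1 was excluded before the search, so the promoter counts below do not cover it. The 250 bases before each annotated start were searched on both strands for the core of the interferon-stimulated response element (GAAA, any 2 bases, GAAA) and for the gamma-activated site (TTCNNNGAA), the textbook landing sites of interferon signalling. No match of one motif overlapped a match of the other in these promoters. Of the 6 promoters, 5 held the response-element core, against 2.98% of the 32851 mouse promoters in the same reference. The gamma-activated site was found in 4 of 6, against 7.02% of all promoters. The same 4 held both, against 0.332% of all promoters. In each of these 4 the gamma-activated site came first and was followed, after 2 further bases, by the response-element core. The 5 windows of 60 bases are shown on the strand of their gene, 5′ to 3′, with both motifs in capitals, because they show how alike the layout is:
Irgm1, minus strand, chr11:48871421-48871480: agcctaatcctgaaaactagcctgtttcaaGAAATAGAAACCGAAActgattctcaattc
Igtp, plus strand, chr11:58199492-58199551: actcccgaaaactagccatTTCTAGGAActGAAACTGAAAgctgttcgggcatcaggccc
Irgm2, plus strand, chr11:58214883-58214942: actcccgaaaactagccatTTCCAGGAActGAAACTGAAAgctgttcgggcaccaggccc
Tgtp1, minus strand, chr11:48992294-48992353: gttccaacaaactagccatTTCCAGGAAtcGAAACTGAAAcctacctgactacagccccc
Tgtp2, minus strand, chr11:49064253-49064312: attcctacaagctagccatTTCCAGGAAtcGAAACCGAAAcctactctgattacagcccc

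The Igtp and Irgm2 windows were identical at 58 of 60 bases, and the Tgtp1 and Tgtp2 windows at 46 of 60. Across these pairs the likeness was lower, with 39 to 43 identical bases. The Irgm1 window shared 18 to 24 bases in place with the others. Bases were compared by position, without alignment. The last Irgm1 core begins 24 bases before the start, too near it for the placing used in the other windows. Likeness at shifted positions is therefore not counted. The capitals of the Irgm1 window are 2 overlapping copies of the response-element core with no gamma-activated site. In the GENCODE annotation the Igtp window lies outside any gene and the Irgm2 and Tgtp1 windows lie in introns of longer transcripts of the same genes. The Tgtp1 and Tgtp2 windows also lie in introns of Olfr56, on the other strand, and the Irgm1 window in an exon of another Irgm1 transcript. The Ifi47 promoter held neither motif in the 250 bases before its annotated start, and none of the 6 held a kappa-B core (GGG, any 2 bases, TTTCC), which 1.41% of all promoters hold. A match of these letters is a description and does not show that a factor binds.

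**Figure D1:**
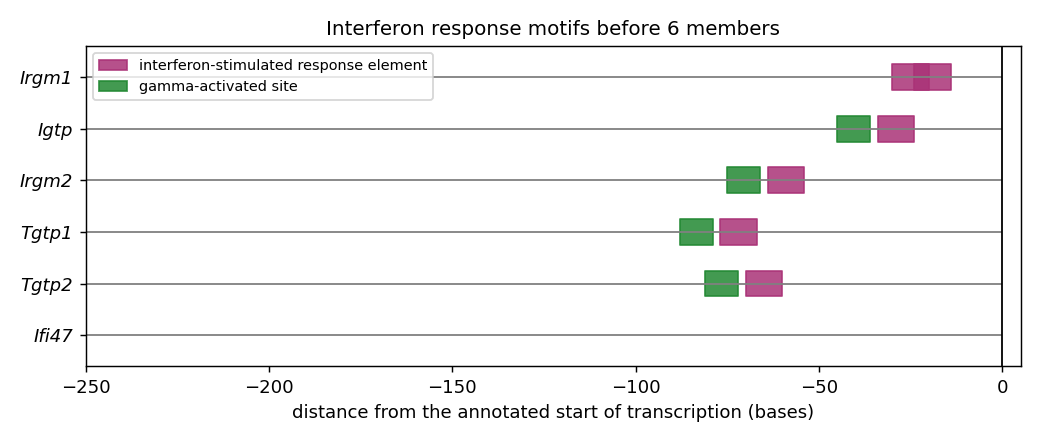
Positions of the response-element core and the gamma-activated site in the 250 bases before the annotated transcription start of 6 members (horizontal axis, distance from the start in bases; each row is a gene, each block a motif match on its true length). In Igtp, Irgm2, Tgtp1 and Tgtp2 the pair keeps the same order and spacing, while its distance from the start differs, with the response element beginning 34 bases before the start in Igtp and 77 in Tgtp1.

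In coordinates of the mouse build GRCm38, which the gene positions in the tables follow, 4 members lie within 235 kb of chromosome 11. These are Irgm1 at 48861968 to 48871683, Tgtp1 at 48985327 to 48994172 and Tgtp2 at 49057194 to 49064206, all on the minus strand, and Ifi47 at 49076587 to 49096974 on the plus strand. A second cluster on the same chromosome, 9103 kb further on, holds Igtp at 58199556 to 58207591 and Irgm2 at 58199618 to 58222782, both on the plus strand. Iigp1 lies on the plus strand of chromosome 18 at 60376029 to 60392627. All 7 are annotated as protein-coding. Each value is given for a gene as a whole and not for its transcripts, and how reads were counted is not stated.

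The comparison rests on 5 distinct libraries, siNC replicates 1 and 2 and siCXCR4 replicates 1, 2 and 3. The table labelled siNC replicate 3 held whole counts, and they equalled the siNC replicate 2 reads in 19072 of 19072 genes compared, a difference below sampling noise. Both tables therefore count as 1 sample here. Libraries held 18890751 to 21780840 reads in genes. Levels are in FPKM, read numbers scaled for gene length and library size, and n is 2 in siNC and 3 in siCXCR4. The siRNA target Cxcr4 was at 41.7 ± 0.616 (SD) FPKM in siNC and 33.4 ± 2.62 FPKM in siCXCR4, lower by a log2 fold change of -0.32 (SE 0.0704). Its groups did not overlap, but the adjusted p was 0.457 by limma, 0.0637 by edgeR and 0.0511 by DESeq2, and the exact two-sided permutation p was 0.1, the smallest that 2 libraries against 3 allow. Macrophage markers such as Csf1r (236 to 253 FPKM) were abundant in every library. Of the 8 T and NK cell markers, 7 stayed below 1 FPKM in every library, Cd3e and Ncr1 among them, with a summed level of the list of 2.02 to 2.24 FPKM in siNC and 1.88 to 2.51 FPKM in siCXCR4. The neutrophil genes S100a8 and S100a9 had lower values in siCXCR4, at 15.4 to 18.2 against 10.7 to 13.3 FPKM and 52.5 to 52.9 against 37.7 to 46.2 FPKM. Limma's adjusted p was 0.457 for S100a8 and 0.486 for S100a9. Groups lay apart and lower in siCXCR4 in 9.92% of all genes. Of the list of 6 neutrophil genes, 3 stayed below 1 FPKM in every library and Camp overlapped between groups. The list's sum therefore rests mostly on S100a8 and S100a9. The summed level of that list of 6 was 73.5 to 76.3 FPKM in siNC and 52.7 to 62.3 FPKM in siCXCR4, with Ly6g at 0 in 4 libraries, and the part of such cells in any result below was not tested. In bulk RNA, fewer cells of a type and less RNA per cell cannot be told apart.

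All 7 members passed the expression filter of a mean of at least 1 FPKM, and all but Tgtp1 were among the 403 most abundant of 9943 genes tested. Ifi47 had the highest mean over the 5 libraries, 217 ± 7.51 FPKM (SD, n = 5), at place 202 of all genes. Igtp followed at 199 ± 13.3 FPKM, then Iigp1 at 172 ± 20.7, Irgm1 at 154 ± 10.2, Irgm2 at 120 ± 7.83, Tgtp2 at 118 ± 6.62 and Tgtp1 at 17.1 ± 4.11 FPKM. Ifi47 was above Igtp, and Igtp above Iigp1, in 5 of 5 libraries, although the ranges of each pair overlapped. Iigp1 was above Irgm1 in 4 of 5 libraries and Irgm2 above Tgtp2 in 3 of 5, so these neighbours did not differ beyond their spread. The ranges were apart between Irgm1 (lowest 141 FPKM) and Irgm2 (highest 129 FPKM), and between Tgtp2 (lowest 111 FPKM) and Tgtp1 (highest 20.4 FPKM). Each member rested on at least 743 reads per library, and those other than Tgtp1 on 6296 to 20966.

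The question was whether these levels differed between macrophages given the Cxcr4 siRNA and the control siRNA. No member did by the test: limma called 0 of 7, beside 0% of all 9943 genes tested, and 0 of 7 had an unadjusted p under 0.05, where 9.34% of all genes did. On the whole reads worked back from FPKM, edgeR's quasi-likelihood test also called 0 of 7, beside 0.133% of genes, with 0 of 7 at an unadjusted p under 0.05, beside 9.73%. DESeq2 called 0 of 7, beside 0.398%, and again 0 had an unadjusted p under 0.05, beside 8.01% of the genes it gave an adjusted p. The values of the groups overlapped in all 7 members, while they did not overlap in 27.8% of all genes. Log2 fold changes ran from -0.11 to 0.09, with 5 of 7 above 0, beside 56.4% of all genes, and their median was 0.04, beside 0.01 over all genes tested.

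**Figure D2:**
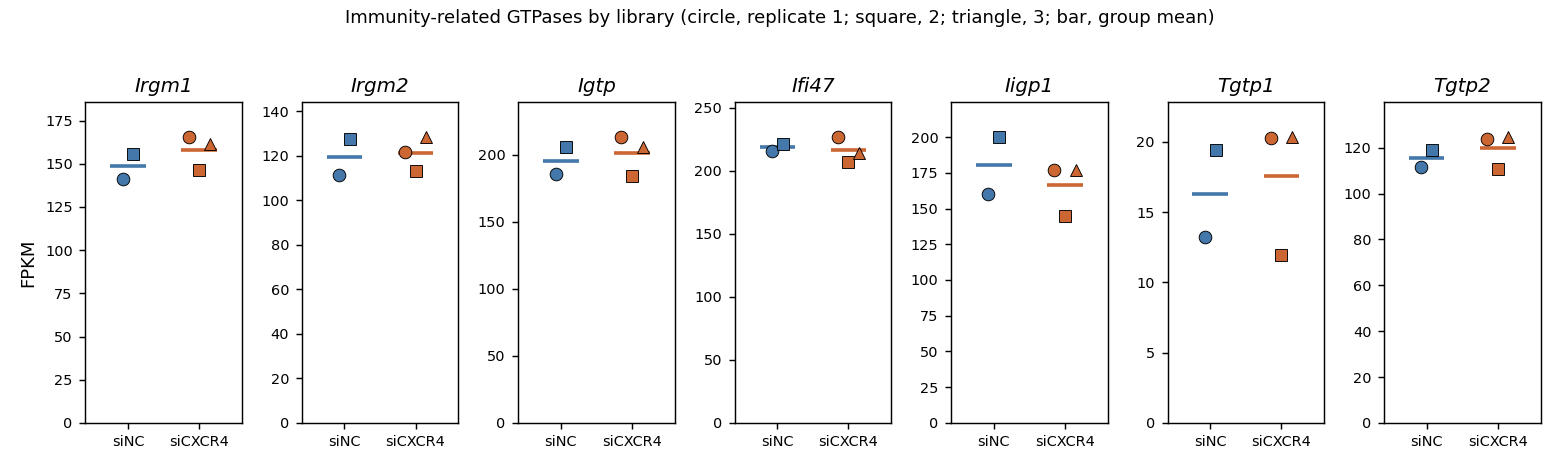
FPKM of the 7 members in each library, 1 panel per gene with its own axis from 0 (blue, siNC, n = 2; orange, siCXCR4, n = 3; marker shape, replicate number; horizontal bar, group mean). In every panel the groups overlap, and replicate 2 (square) is the lowest of the siCXCR4 libraries.

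Among the regulators of the GMS branch, Irgm1, which also takes part in autophagy and membrane traffic, was at 141 and 156 FPKM in siNC and at 166, 147 and 162 FPKM in siCXCR4 replicates 1, 2 and 3. The lowest siCXCR4 library lay between the siNC libraries, so the groups overlapped. Its log2 fold change was 0.09 (SE 0.0739, 95% interval -0.09 to 0.26, limma adjusted p = 0.718), which bounds the fold between 0.941 and 1.20. With 1 library left out it ranged from 0.02 (siNC replicate 1) to 0.16 (siNC replicate 2). Irgm1 had the lowest p of the 7 members. Irgm2, which resides at the Golgi, was at 112 and 127 FPKM in siNC and at 122, 113 and 129 FPKM in siCXCR4. The siNC libraries spanned nearly the whole range of the siCXCR4 libraries. The log2 fold change of Irgm2 was 0.02 (SE 0.0796, 95% interval -0.17 to 0.21), and it turned to -0.07 with siNC replicate 1 left out and to -0.02 with siCXCR4 replicate 3 left out.

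Igtp, which resides at the endoplasmic reticulum, was at 185 and 206 FPKM in siNC and at 213, 184 and 206 FPKM in siCXCR4. Replicate 1 of siNC and replicate 2 of siCXCR4 were the low libraries, and they differed from each other by less than either did from its own group's other libraries. The log2 fold change of Igtp was 0.04 (SE 0.0813, 95% interval -0.15 to 0.23). Its sign turned with siNC replicate 1 left out (-0.04) and with siCXCR4 replicate 1 left out (-0.0047). Igtp and Irgm2 overlap on the same strand because 1 annotated Irgm2 transcript starts near the Igtp start. Of the distinct 50-base stretches in Igtp transcripts, 11.8% also occur in Irgm2 transcripts, so a small part of their reads could have been credited to either.

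Among the effectors of the GKS branch, Ifi47 was the steadiest member, at 216 and 222 FPKM in siNC and at 227, 207 and 215 FPKM in siCXCR4. Its highest library exceeded its lowest by 1.10-fold. The log2 fold change was -0.02 (SE 0.0579, 95% interval -0.16 to 0.12), the narrowest interval of the 7, with a fold between 0.898 and 1.09. With siCXCR4 replicate 2 left out it was 0.01, and with siNC replicate 2 left out 0.00021. Ifi47 lies within the span of Olfr56, an olfactory receptor gene annotated on the same strand with a mean of 2873 reads per library against 10988 for Ifi47, and 2.54% of its 50-base stretches also occur in Olfr56 transcripts.

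Iigp1, an effector known to load onto Toxoplasma vacuoles, was at 161 and 200 FPKM in siNC and at 177, 145 and 177 FPKM in siCXCR4. The siNC replicates differed from each other by 1.248-fold, and the siCXCR4 replicates by up to 1.22-fold. The mean was 180 ± 28.2 FPKM in siNC and 166 ± 18.5 FPKM in siCXCR4, a difference smaller than the SD of either group. The log2 fold change of -0.11 (SE 0.129, 95% interval -0.43 to 0.20, limma adjusted p = 0.795) was the lowest of the 7. It turned to 0.05 without siNC replicate 2, the library in which Iigp1 was highest.

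Tgtp1 and Tgtp2 are neighbouring copies that encode near-identical proteins. Tgtp2 was at 112 and 119 FPKM in siNC and at 124, 111 and 125 FPKM in siCXCR4. Its log2 fold change was 0.05 (SE 0.0699, 95% interval -0.12 to 0.22), and it ranged from 0.0062 with siNC replicate 1 left out to 0.11 with siCXCR4 replicate 2 left out. Tgtp1 was at 13.2 and 19.4 FPKM in siNC and at 20.3, 12.0 and 20.4 FPKM in siCXCR4. Its values fell into a high set of 3 libraries from 19.4 to 20.4 FPKM and a low pair at 12.0 and 13.2 FPKM, and each group held libraries of both kinds. The log2 fold change of Tgtp1 was 0.08 (SE 0.305, 95% interval -0.74 to 0.91), an interval of the fold from 0.600 to 1.88 that includes 1. Its sign turned with siNC replicate 1 left out (-0.18), and with siCXCR4 replicate 1 (-0.03) or replicate 3 (-0.04) left out, while it reached 0.345 with siNC replicate 2 left out and 0.3245 with siCXCR4 replicate 2 left out. The spread within groups of Tgtp1, 0.40 on the log2 scale, was above that of 98.0% of genes tested, and that of Iigp1, 0.19, lay at the 91.3rd percentile. Tgtp1 supplied 10.6% and 14.0% of the summed FPKM of the pair in siNC, and 14.1%, 9.76% and 14.0% in siCXCR4.

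The split between the copies is uncertain. Of the 50-base stretches in Tgtp1 transcripts, 79.4% occur in Tgtp2 transcripts, and 85.8% of those in Tgtp2 occur in Tgtp1. The treatment of reads that match several places is not stated in the sources. With the rows summed, the log2 fold change of the pair was 0.06 (limma adjusted p = 0.860). Tgtp1 also overlaps Gm12185 on the same strand (mean 699 reads per library) and Olfr56 on the other strand, against a mean of 1114 reads for Tgtp1 itself. Whether counting used strand is not stated either.

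**Figure D3:**
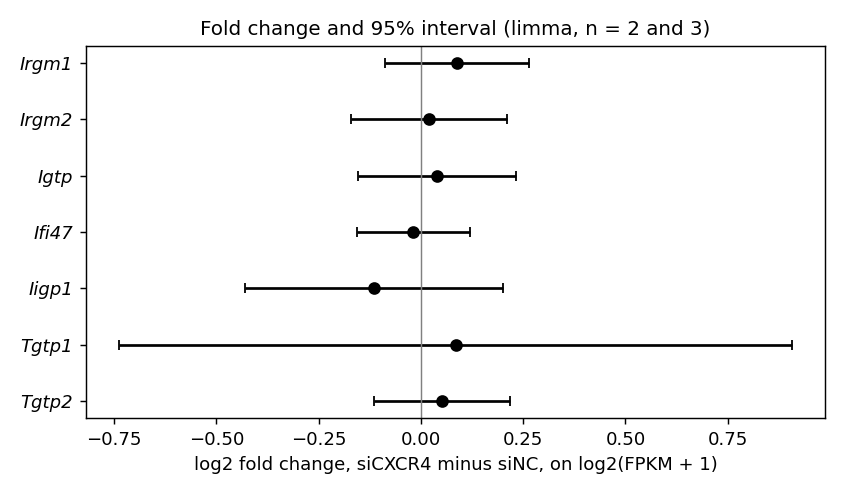
Log2 fold change (siCXCR4 minus siNC, on log2(FPKM + 1)) of each member with its 95% interval from limma (n = 2 and 3). All 7 intervals include 0; the interval of Ifi47 is the narrowest and that of Tgtp1, from -0.74 to 0.91, the widest.

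The members varied between libraries in a shared way that did not follow the siRNA groups. In 6 of 7 members the lowest libraries were siNC replicate 1 and siCXCR4 replicate 2, 1 from each group, while this pair was lowest in 12.0% of all genes tested. Ifi47 was the exception, with siCXCR4 replicates 2 and 3 lowest. Relative to its mean over the 5 libraries, the average member stood at -0.12 in siNC replicate 1 and -0.16 in siCXCR4 replicate 2 on the log2 scale. It stood at 0.09 in siNC replicate 2, 0.10 in siCXCR4 replicate 1 and 0.09 in siCXCR4 replicate 3. The summed level of the 7 members was 940 and 1049 FPKM in siNC and 1049, 919 and 1033 FPKM in siCXCR4. The size of the swing differed between members, from 0.13 between the highest and lowest library in Ifi47 to 0.46 in Iigp1 and 0.72 in Tgtp1. The low pair had 21443370 and 19323985 reads in genes, and 2.81% and 0.312% of reads outside listed genes. For siNC replicate 2 and siCXCR4 replicates 1 and 3 the reads in genes were 19292520, 21780840 and 18890751. Their percentages outside listed genes were 2.15%, 0.00033% and 1.37%. These percentages rest on library totals worked back from FPKM. The shared pattern of the members was noticed in these data, and neither it nor its cause was tested.

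**Figure D4:**
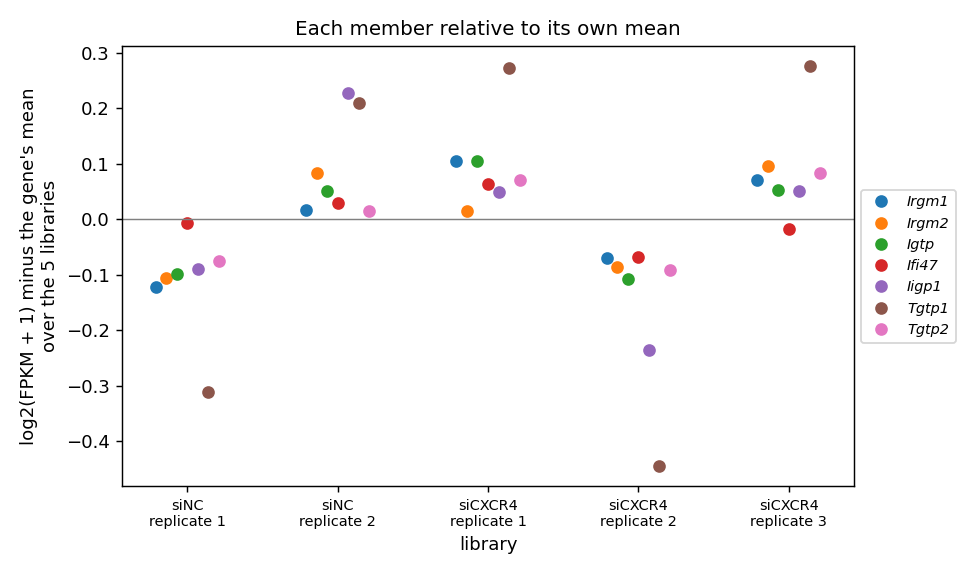
Each member's log2(FPKM + 1) minus its own mean over the 5 libraries (vertical axis) by library (horizontal axis); points of 1 library are spread sideways for legibility. All 7 members are below 0 in siNC replicate 1 and in siCXCR4 replicate 2, and all but Ifi47 in siCXCR4 replicate 3 are above 0 in the other libraries.

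By the smallest root mean square difference from this average profile over 5 libraries, the most alike of the 9936 other genes were Clic5 (0.0166 on the log2 scale), Fyn (0.0179), Ddx60 (0.0198), Cep95 (0.0208) and Zfp346 (0.0229). Ddx60 is an interferon-induced helicase and Fyn a kinase of the Src family. Ddx60 was at 33.3 and 38.9 FPKM in siNC and 38.1, 33.2 and 39.0 FPKM in siCXCR4. Cxcl10, an interferon-induced chemokine, stood at place 14 and Irf1, a transcription factor induced by interferon-gamma, at place 54. Both were looked up after the values were seen.

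The interferon genes themselves were read beside the family. Ifng, which encodes interferon-gamma, was at 3.395 and 5.405 FPKM in siNC and at 4.113, 2.988 and 4.999 FPKM in siCXCR4, from 75 to 138 reads per library. Its lowest libraries were the same pair as in 6 members, a pair that was lowest in 12.0% of all genes tested. By the root mean square difference from the members' average profile, Ifng stood at place 7224 of 9936 (0.165 on the log2 scale). The part of Ifng in the members' levels was not tested. The difference between groups for Ifng was -0.10 on the log2 scale (SE 0.237, limma adjusted p = 0.919). Leaving out siNC replicate 2 turned it to 0.18, and leaving out siCXCR4 replicate 2 to 0.06. Ifnb1, the gene of interferon-beta, was below 1 FPKM in every library, and Ifna1, Ifna2, Ifna4 and Ifna5 were listed at 0 throughout. Of the 5 tested genes of interferons and the cytokines that drive them, 0 passed limma's test, 1 was above 0 and 4 were below, and the median was -0.12. Il12a, a subunit of interleukin-12, which drives interferon-gamma production, was at 59.6 to 65.8 FPKM in siNC and 37.9 to 52.0 FPKM in siCXCR4. Its log2 fold change was -0.51 (SE 0.135, limma adjusted p = 0.488). By edgeR its adjusted p was 0.294, and DESeq2 called it (adjusted p = 0.00203), beside 0.398% of all genes. Its partner Il12b and Il27 had log2 fold changes of -0.13 and -0.12, and that of Il12b turned to 0.04 without siNC replicate 1.

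Interferon receptors, the signalling proteins downstream and their regulators were tested as a list of 16 genes, and 0 were called in either direction. At an unadjusted p under 0.05, 1 was higher and 0 lower, a smaller share than the 9.34% of all genes. That gene was Jak1, the kinase shared by the receptors of both interferon types, at 59.0 and 60.7 FPKM in siNC and 67.5, 62.3 and 69.3 FPKM in siCXCR4 (log2 fold change 0.15, SE 0.0601, limma adjusted p = 0.530). For Ifngr2, a chain of the interferon-gamma receptor, the log2 fold change was 0.12 (SE 0.0506), and for the kinase Tyk2 it was 0.09 (SE 0.0491). Nlrc5, an activator of class I antigen presentation genes, had -0.14 (SE 0.0808). The median of the list was 0.06, with 11 genes above 0 and 5 below. In 6 of 16 the groups did not overlap, each higher in siCXCR4, beside 17.9% of all genes, and 6 of 16 genes had the same lowest pair of libraries as the members.

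Other loci of the IRG family were listed as 12 symbols, of which 11 were in the tables and 9 were tested, with 0 called. Gm12250, the locus of Irgb10 in RefSeq and annotated as a pseudogene in the tables, was close to Ifi47 in level, at 208 and 211 FPKM in siNC and 210, 203 and 204 FPKM in siCXCR4. Its highest library exceeded its lowest by 1.04-fold, and its log2 fold change was -0.03 (SE 0.0486). F830016B08Rik, a gene of the Iigp1 region listed in RefSeq as Ifgga4, was at 7.135 and 10.1 FPKM in siNC and 5.19, 6.27 and 7.079 FPKM in siCXCR4. It was the only one of the 9 whose groups did not overlap. Groups lay apart and lower in siCXCR4 in 9.92% of all genes, and here the nearest libraries of the groups were almost level. Its log2 fold change was -0.41 (SE 0.170, limma adjusted p = 0.538), or -0.64 with siNC replicate 1 left out and -0.19 with siNC replicate 2 left out. The tandem genes 9930111J21Rik1 and 9930111J21Rik2 stood at -0.23 (SE 0.107) and -0.14 (SE 0.125) on the log2 scale, the latter turning to 0.04 with siNC replicate 2 left out. Irgq, a divergent relative, had 0.04 (SE 0.0770), or -0.0077 with siCXCR4 replicate 2 left out. The median of the 9 was -0.03. In 4 of the 9 the lowest pair of libraries was that of the members.

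Guanylate-binding proteins (GBPs) are larger interferon-induced GTPases that work with IRG effectors at the vacuole. Of 13 symbols 12 were in the tables and tested, 0 were called and 0 had groups that did not overlap, beside 27.8% of all genes. Gbp2 was the most abundant, at 1198 and 1333 FPKM in siNC and 1387, 1311 and 1326 FPKM in siCXCR4. Gbp2b had a log2 fold change of 0.30 (SE 0.125), Gbp3 0.13 (SE 0.0764), Gbp7 -0.11 (SE 0.0694) and Gbp8 -0.25 (SE 0.165). With 1 library left out, Gbp7 ranged from -0.21 (siNC replicate 1) to -0.0064 (siNC replicate 2) and Gbp8 from -0.36 (siCXCR4 replicate 3) to -0.10 (siCXCR4 replicate 2). The median was -0.07, with 3 genes above 0 and 9 below. In 8 of 12 GBPs the lowest libraries were siNC replicate 1 and siCXCR4 replicate 2.

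The conjugation system of the ATG8 proteins, ubiquitin-like proteins of autophagy that mark self membranes and steer IRG effectors to the vacuole, was tested as 16 genes with its targeting factors. Limma and edgeR called 0, limma gave 0 with an unadjusted p under 0.05, beside 9.34% of all genes, and the median log2 fold change was 0.02, with 9 genes above 0 and 7 below. Atg16l1, part of the ligase that attaches ATG8 proteins to lipid, was at 5.405 and 5.67 FPKM in siNC and 6.24, 5.85 and 6.44 FPKM in siCXCR4 (log2 fold change 0.13, SE 0.0618, limma adjusted p = 0.557). Atg12 and Atg7, of the same conjugation chain, both had 0.09, and Atg10 had -0.18 (SE 0.101). The groups lay apart and higher in siCXCR4 in 4 of the 16, Atg16l1 among them, beside 17.9% of all genes. They lay apart and lower in 1 of the 16, beside 9.92%. Here 2 of 16 genes had the members' lowest pair, close to the 12.0% of all genes. In 4 of the 16 this pair was instead the highest, as in 14.6% of all genes. Among 9 macrophage markers the pair was lowest in 1 and highest in 3, among them Adgre1 (528 and 508 FPKM, against 441 to 458 FPKM in the other libraries) and Cd14 (484 and 442 FPKM, against 375 to 396 FPKM).

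**Figure D5:**
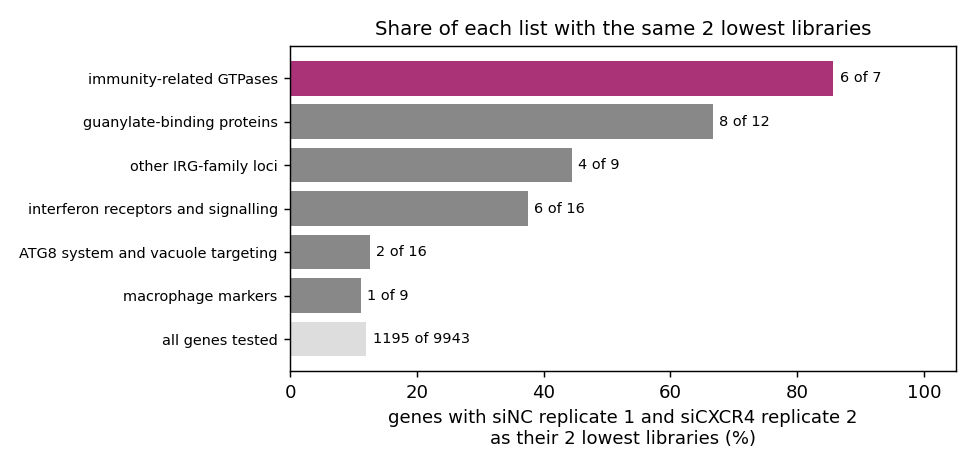
Share of the tested genes in each list (horizontal axis, percent; counts beside the bars) whose lowest values were in siNC replicate 1 and siCXCR4 replicate 2. The share was 6 of 7 in the members, 8 of 12 in the guanylate-binding proteins and 12.0% of all genes tested; these are descriptions without a test.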

How the data were processed

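RNA sequencing tables of 6 samples were used, 3 labelled siNC and 3 siCXCR4. The authors deposited FPKM values in 5 tables. The unit was inferred, since the headers name none, and could as well be RPKM. Multiplied by gene length, 100% of values above 0 were whole multiples of a constant of their library (tolerance 0.05), from which whole reads were worked back. For siNC replicate 3 the authors deposited whole read counts. The submitters' processing notes name mm9, but 98.3% of the 54409 genes shared with GENCODE vM21 had GRCm38 positions, among them 6 of the 7 members. Not given in the sources used here: aligner, counter, strand setting and the handling of multiply matching reads.

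Limma 3.58.1 (R 4.3.3; trend, robust) on log2(FPKM + 1) for the 9943 genes averaging at least 1 FPKM was the main test (two-sided, Benjamini-Hochberg threshold 0.05). A fold change on this scale is understated for low genes. Of the 6 deposited libraries, the 5 distinct ones were planned for this fit and used. Alternatives were edgeR 4.0.16 and DESeq2 1.42.0 on whole reads, other pseudocounts, filters and scalings, a replicate block, the copy as a replicate, and each library left out. The edgeR fits without each library were added after the data were seen. The limma and edgeR fits were tested on simulated data.

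The members, lists and motifs were chosen with earlier results of these data known. Named were Cxcr4, all members, up to 4 genes of lowest p per list, the 5 nearest profiles, and neighbouring genes with reads. The marker genes of cell types, Gbp2, Ifnb1, the Ifna genes, Cxcl10 and Irf1 were named outside that rule, after their values were seen. The values of 1 gene of the signalling list are not reported here.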

Additional observations from a re-analysis of the deposited data

How the results depend on the processing

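Of 120 member values (17 alternatives for each member, and for Tgtp2 also its sum with Tgtp1), 0 passed the threshold (adjusted p 0.389 to 0.9999) and 15 changed sign; only Irgm1 and Tgtp2 kept it in every alternative. With each library left out, log2 fold changes ran from 0.02 to 0.16 for Irgm1, 0.0062 to 0.11 for Tgtp2, -0.074 to 0.11 for Irgm2, -0.035 to 0.11 for Igtp, -0.27 to 0.045 for Iigp1, -0.054 to 0.012 for Ifi47 and -0.18 to 0.345 for Tgtp1. The same ranges were -0.37 to 0.18 for Ifng, -0.29 to 0.042 for Il12b, -0.32 to 0.043 for 9930111J21Rik2 and -0.0077 to 0.10 for Irgq. The members' median ran from -0.04 to 0.11. Irgm2 turned to -0.0075 when scaled to reads in listed genes, -0.024 with the replicate block and -0.011 with the copy as a replicate. Tgtp1 turned to -0.036 with the replicate block and -0.0019 with the copy. With the replicate block 0 genes were called and the members' median was -0.01. Deviations of same-numbered samples correlated at -0.04 and -0.11. With 2 siNC libraries, the deviations of one mirror those of the other, and siNC replicate 3 is a copy. These correlations therefore cannot show whether the numbers pair samples. Over all genes, limma called 0, but 6 with the copy, and 0 to 1 with a library left out (1 without siCXCR4 replicate 2). edgeR called 17 (205 without a filter, and with a library left out 0 without siCXCR4 replicate 1, 3 without siCXCR4 replicate 3, 5 without siNC replicate 1, 20 without siNC replicate 2 and 312 without siCXCR4 replicate 2) and DESeq2 28. The cause of these shifts was not tested. With 2 libraries against 3, differences within the intervals given were not detectable.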
